A study of Ovis aries with 48 samples.

Results

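Perirenal fat of female sheep exposed to excess testosterone before birth (prenatal T) was compared with perirenal fat of control sheep. The members are the 8 perirenal libraries of the testosterone cohort, 4 from control sheep (098, 131, 132 and 201) and 4 from prenatal T sheep (48, 185, 233 and 255), out of 32 libraries in that cohort and 48 in the series. They were chosen by their column names in the deposited tables, that is by depot and treatment. Mothers of the prenatal T sheep received intramuscular injections of testosterone propionate, 100 mg a dose in corn oil, from gestational day 30 to 90. The labels do not describe the treatment of this cohort's control mothers and give no age at which the fat was taken. Each library comes from 1 sheep, and the labels name no genetic change in either group. In the text below, the values of single libraries always follow the order 098, 131, 132, 201 for controls and 48, 185, 233, 255 for prenatal T sheep.

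Perirenal fat surrounds the kidney. In newborn lambs it is largely brown fat, which burns lipid to make heat, and it turns into white, lipid-storing fat after birth. Small non-coding RNAs were sequenced. MicroRNAs are short RNAs that pair with messenger RNAs and lower their translation or stability. Small nucleolar RNAs (snoRNAs) guide chemical modification of ribosomal RNA and are mostly cut out of introns of host genes. Small nuclear RNAs (snRNAs) form the splicing machinery, and long non-coding RNAs (lncRNAs) were read here only through the short fragments that a small RNA library captures. Androgens act through the androgen receptor, a transcription factor, and exposure of the female sheep fetus is used as a model of reproductive and metabolic disorder in the adult.

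The library numbers in the labels fall into an early set, up to 48, and a later set. Of the perirenal libraries, 7 are early (all 4 prenatal T sheep, and controls 131, 132 and 201) and 1 is later, control 098. The 4 RNA classes together held 283463 reads in control 098 and from 1046213 to 1742991 in the others. Control 098 and prenatal T 255 stood apart from the rest. Over the microRNAs tested, the mean correlation of a library with the other 7 was 0.942 for control 098, 0.914 for prenatal T 255 and 0.973 to 0.979 for each of the other 6. MIR21, a microRNA common in injured and proliferating tissue and named after its values were seen, had 11899 normalised reads in prenatal T 255 and 915 to 2001.9 in the other 7. A normalised read is the deposited unit, a read count divided by a size factor that the authors set within the depot and RNA class. Many of the larger differences are also given without these libraries. A difference given only for all 8 libraries may still rest on them. Leaving out control 098 also leaves the early set alone, so that the set and this sheep cannot be told apart.

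No feature passed the test between prenatal T and control perirenal fat. The lowest p among the 471 features tested belonged to MIR133, a muscle microRNA that was lower in every prenatal T library than in any control. Next among microRNAs came 3 members of the imprinted DLK1-DIO3 cluster, with higher values in prenatal T sheep. The abundant let-7 family had lower values, with a median log2 fold change of -1.21, and much of that came from the same pair of libraries that stood apart.

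With limma on log2(normalised reads + 1), features with a mean of at least 5 over the 8 libraries were tested: 86 microRNAs, 147 snoRNAs, 41 snRNAs and 197 lncRNAs. At an adjusted p under 0.05, 0 features were called (0.0% of those tested), and the lowest adjusted p was 0.368. At an unadjusted p under 0.05 there were 12 features (2.55%), 9 of them higher and 3 lower in prenatal T sheep. On whole reads recovered from the deposited values, edgeR called 0, with 27 at an unadjusted p under 0.05. DESeq2 called 1, MIR133, or 0.225% of the 445 features to which it gave an adjusted p, with 28 at an unadjusted p under 0.05. The groups did not overlap in 12 features (2.55%), 6 higher and 6 lower. The median 95% interval reached 1.17 log2 units to either side of the estimate, and it lay within a 4-fold change in 297 features and within a 2-fold change in 35, so that for most features differences of 2-fold were not detectable with these sheep. Median log2 fold changes were -0.06 for microRNAs, -0.22 for snoRNAs, -0.04 for snRNAs and -0.07 for lncRNAs. Scaling each library to its total of microRNA reads instead moved the microRNA median to 0.52, with 69 of 86 above 0 in place of 40. The sign of a small microRNA difference therefore depends on the scale.

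**Figure D1:**
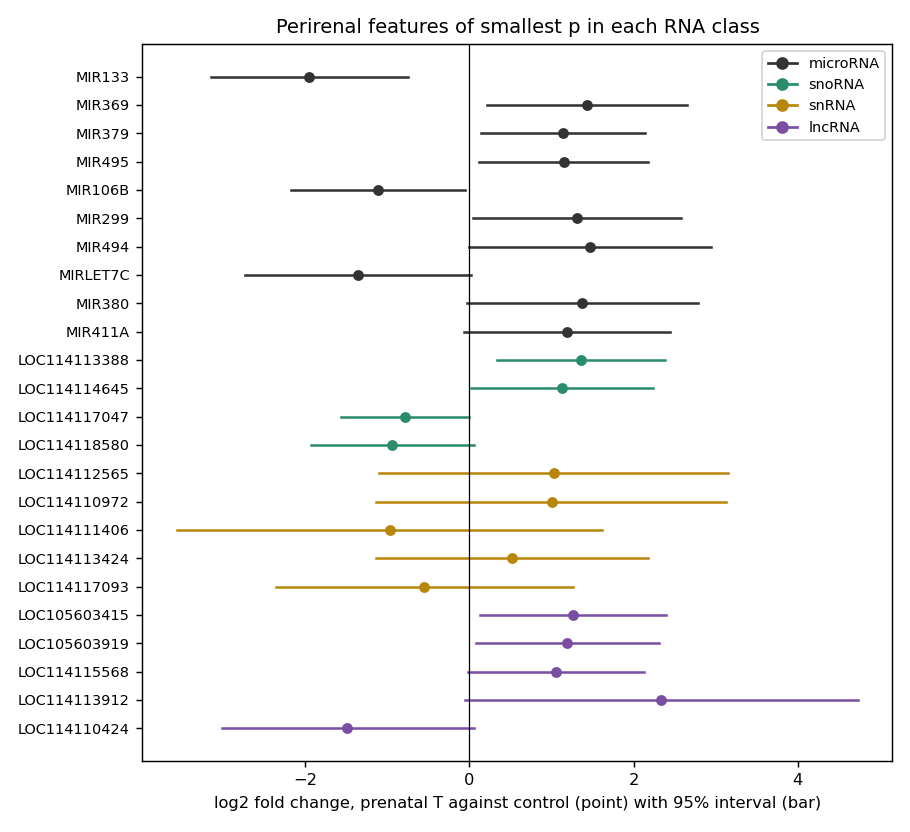
Log2 fold changes of prenatal T against control perirenal fat (x axis; points) with 95% intervals (bars) for the named features of lowest p in each RNA class (y axis; colour gives the class), 4 sheep a group, limma. MIR133 lies farthest from 0 among the microRNAs at -1.95, and none of these features passed the adjusted threshold.

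MIR133 is the classic microRNA of skeletal and heart muscle, and in fat precursors it lowers PRDM16, a factor that brown fat needs. It had 606, 356, 2528 and 666 normalised reads in control sheep and 253, 201, 262 and 121 in prenatal T sheep. All prenatal T libraries lay below all controls, and control 132 stood far above the other controls. The log2 fold change was -1.95 (SE 0.54, 95% interval -3.15 to -0.75, limma adjusted p = 0.368). With edgeR it was -2.25 (adjusted p = 0.224) and with DESeq2 -2.31 (adjusted p = 0.00784). Control 132 decided the DESeq2 call: without it the value was -1.35 (DESeq2 adjusted p = 0.137), while MIR133 was called without any other library, at adjusted p from 0.000726 to 0.024. Without control 132 limma gave -1.38, and without control 098 and prenatal T 255 it gave -1.83.

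As a share of microRNA reads, MIR133 stood at 0.0461%, 0.0317%, 0.257% and 0.064% in controls and at 0.0292%, 0.0193%, 0.0334% and 0.0281% in prenatal T sheep. On this scale the groups overlapped, since prenatal T 233 lay above control 131, and the fold change was -1.37. MIR133 is the only member of the striated muscle list that the table holds, out of 6 names, so the amount of muscle in the samples could not be read from a second marker and its part in this result was not tested. In whole tissue, fewer cells of a type and less RNA per cell cannot be told apart. As a share of microRNA reads, MIR133 ran from 0.00706% to 0.159% in visceral and from 0.0372% to 2.59% in epicardial fat of the same sheep. Its perirenal difference did not pass the test against the other depots.

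**Figure D2:**
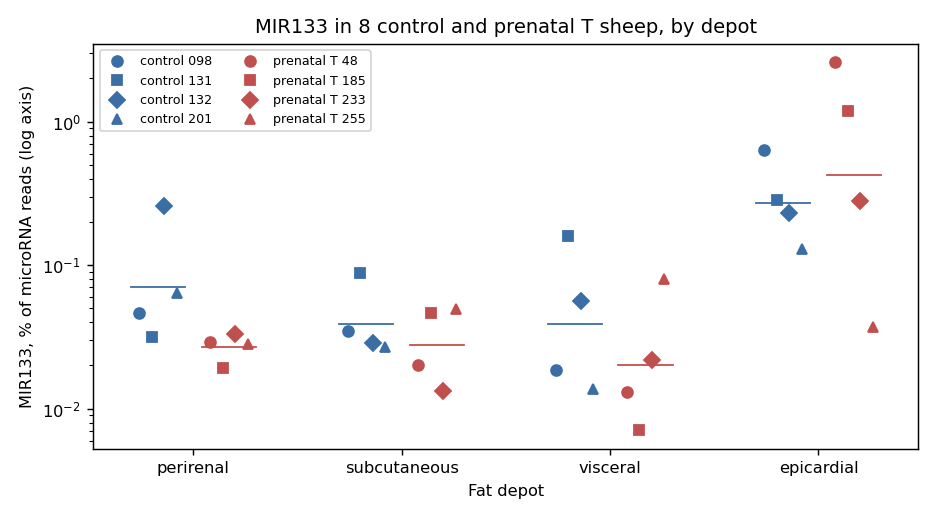
MIR133 as a percent of microRNA reads (y axis, log scale) in each library of the 8 sheep, by fat depot (x axis), with the geometric mean of each group as a line. In perirenal fat prenatal T sheep lie between 0.0193% and 0.0334% and controls between 0.0317% and 0.257%, while epicardial fat has the highest and most scattered values.

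Other microRNAs whose groups did not overlap were few: 4 of 86 microRNAs were lower in every prenatal T library (4.65%) and 2 were higher in every one (2.33%). The lower ones were MIR133, MIR106B, MIR16B and MIR26A. MIR106B belongs to a cluster in the MCM7 gene that promotes cell cycle entry. It had 4206, 1551.5, 1634 and 1700 normalised reads in controls and 1212, 1473, 1193.5 and 392 in prenatal T sheep, with control 098 highest and prenatal T 255 lowest. Its log2 fold change was -1.11 (SE 0.48, limma adjusted p = 0.427), and -0.34 without those 2 libraries. MIR26A, a microRNA of high level in fat, had 67658, 59949, 60030.5 and 62208 normalised reads in controls and 51859, 58046, 57670 and 38154 in prenatal T sheep. The gap between its groups was narrow, at -0.30 on the log2 scale (limma adjusted p = 0.668), and the sign turned to 0.28 with scaling to total microRNA reads. MIR16B, of a family that slows the cell cycle, had 8175, 8696, 7887 and 8191 normalised reads in controls and 6718, 7624, 4524.5 and 1520 in prenatal T sheep. Prenatal T 255 was lowest, and the log2 fold change of -0.93 (limma adjusted p = 0.427) was -0.42 without it. The higher ones, MIR382 (0.48) and MIR412 (0.70), both lie in the DLK1-DIO3 cluster, and without control 098 and prenatal T 255 they had 0.45 and 0.30.

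The DLK1-DIO3 region is imprinted. Its microRNAs and snoRNAs are expressed from the maternal chromosome, and the cluster is known for high expression in fetal and stem cells. The table holds 54 of the 58 names listed for it, and 38 passed the filter. In prenatal T sheep 29 of the 38 had a positive value and 9 a negative one, with a median log2 fold change of 0.55 (from -1.10 to 1.77), beside -0.06 over all 86 microRNAs. None was called. All 5 microRNAs that were higher at an unadjusted p under 0.05 (5.81% of the 86 tested) belong to it: MIR369, MIR379, MIR495, MIR299 and MIR494. Neighbours of similar sequence, such as MIR411A and MIR411B or MIR154A and MIR154B, may share reads, and a cluster made from shared transcripts is not a set of independent measurements. The filter takes the mean of both groups, so some members passed through prenatal T 255. MIR381, the one at 1.77, had 0 to 1.9 normalised reads in controls and 55.6 in that library. Without prenatal T 255 only 33 members passed, so the sign count and range depend in part on the filter.

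Prenatal T 233 and 255 carried most of this difference. The median distance of the 38 microRNAs from their control mean was 0.41, -0.31, 0.01 and 0.04 log2 units in controls and 0.12, -0.17, 0.85 and 1.59 in prenatal T sheep. Prenatal T 48 and 185 thus lay within the range of the controls. The cluster took 0.884%, 0.462%, 0.723% and 0.655% of microRNA reads in controls and 0.808%, 0.586%, 1.62% and 4.67% in prenatal T sheep. Without prenatal T 255 the median was 0.30 (21 of 33 positive), without control 098 it was 0.66 (34 of 36), and without both 0.38 (30 of 33). Scaled to total microRNA reads it was 1.10 (35 of 38 positive), beside 0.52 for all microRNAs.

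**Figure D3:**
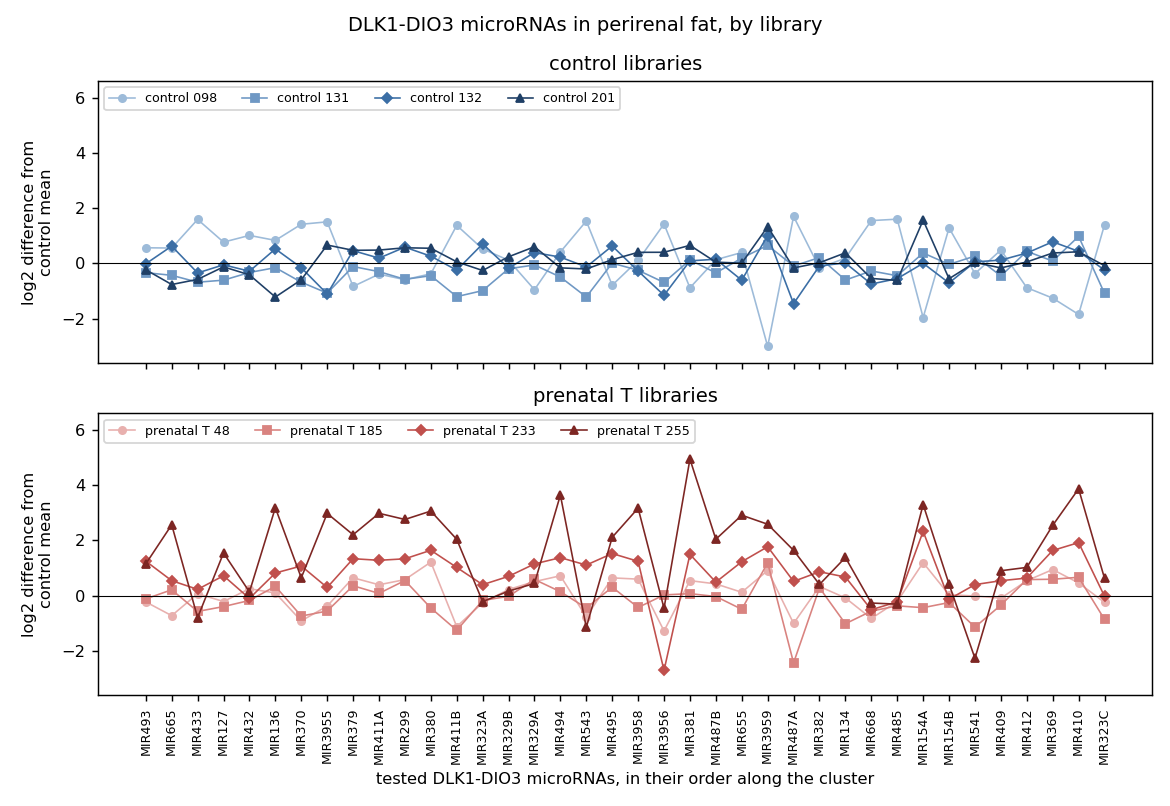
Log2 difference of each tested DLK1-DIO3 microRNA from its control mean (y axis) in every perirenal library (lines; controls above, prenatal T below), with the 38 microRNAs in their order along the cluster (x axis). The lines of prenatal T 233 and 255 run above 0 over most of the cluster, at medians of 0.85 and 1.59, and those of prenatal T 48 and 185 stay near the controls.

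MIR379 heads a large block of microRNAs within the cluster. It had 287, 474, 706 and 712 normalised reads in controls and 804, 658, 1297.5 and 2367 in prenatal T sheep. Prenatal T 185 lay among the controls and the other 3 above them, and the log2 fold change was 1.14 (SE 0.46, limma adjusted p = 0.427). It was 0.51 without control 098 and prenatal T 255. MIR369, near the far end of that block, had 11, 29.4, 48.3 and 36.2 in controls and 54.2, 42.3, 88.1 and 166 in prenatal T sheep, a log2 fold change of 1.43 (SE 0.55, limma adjusted p = 0.427). Prenatal T 185 lay below control 132, and the value was 0.65 without control 098 and prenatal T 255.

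MIR495 had 38.6, 67.9, 105.3 and 74.2 normalised reads in controls and 105.6, 83.7, 196 and 295 in prenatal T sheep, a log2 fold change of 1.15 (limma adjusted p = 0.427). Without control 098 and prenatal T 255 this was 0.56. MIR494 had 33.1, 17.2, 29.0 and 21.9 against 41.2, 27.3, 65.5 and 318. Its log2 fold change of 1.47 came down to 0.75 without prenatal T 255. Values for MIR299 (1.31), MIR380 (1.37) and MIR411A (1.19) shared that shape, with prenatal T 255 highest and 233 next, and without prenatal T 255 they were 0.82, 0.81 and 0.59. MIR127, the member of highest level, which lies antisense to the imprinted gene RTL1, had 6411, 2469, 3629 and 3448 against 3250, 2862, 6200 and 10972. The log2 fold change was 0.42 (limma adjusted p = 0.668), and 0.04 without prenatal T 255. Because the counting is not stated to use strand, reads of RTL1 cannot be told apart from those of MIR127. A further 16 members were below the filter.

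RNAs of other classes from the region were also measured. LOC105606646, listed among the lncRNAs, spans much of the cluster. It had 425, 307, 499 and 488 normalised reads in controls and 601, 440, 1314 and 3319 in prenatal T sheep, with prenatal T 185 among the controls and 255 highest. The log2 fold change was 1.29 (SE 0.61, limma adjusted p = 0.906), and 0.74 without prenatal T 255. RefSeq's table for assembly ARS-UI_Ramb_v3.0 calls the gene protein-coding, and its reads cannot be told apart from those of the small RNAs inside it. Of 33 snoRNAs that this table places within it, 5 passed the filter. Together with the host, 6 of 6 values were positive with a median of 1.19 and none was called, beside -0.22 over all snoRNAs and -0.07 over all lncRNAs. Without control 098 and prenatal T 255, 4 of 4 were positive with a median of 0.69. Without control 131, 5 of 6 were positive (median 0.70), as they were with scaling to the total of the 4 classes (median 0.71). The filter takes the mean of both groups, so a member can pass through its prenatal T values alone. Among snoRNAs of this host below the filter, LOC114109206 had 0.18, LOC114109205 0.0 and LOC114109221 -1.35 in a fit of all 32 libraries. The uniform sign therefore holds only for members that passed.

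Let-7 microRNAs rise as cells differentiate, and they lower LIN28 and parts of the insulin signalling chain. They took 69.4%, 51.8%, 45.8% and 43.6% of microRNA reads in controls and 49.1%, 51.8%, 39.9% and 25.0% in prenatal T sheep. Control 098 was highest and prenatal T 255 lowest, and the other 6 libraries of both groups overlapped. All 7 family members in the table were tested: 6 had negative values and 1 a positive one, with a median log2 fold change of -1.21 and none called. MIRLET7C had 135884.5, 65053, 45945 and 49964 normalised reads in controls and 40421, 57102, 27026 and 7497 in prenatal T sheep. The log2 fold change was -1.36 (SE 0.63, limma adjusted p = 0.427), and -0.42 without control 098 and prenatal T 255.

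MIRLET7A and MIRLET7B, which had the highest mean levels of all microRNAs over the 8 libraries, had -1.22 and -1.33 with limma adjusted p of 0.427 for each. Their values were -0.27 and -0.26 without control 098 and prenatal T 255. MIRLET7F differed from them, with 20109 normalised reads in control 098, 50497 to 62161 in 6 libraries and 14685 in prenatal T 255. Its log2 fold change was -0.19 (limma adjusted p = 0.910). The family's median was -0.51 without prenatal T 255, -0.86 without control 098 and -0.26 without both, with 7 of 7 negative in the last. Scaled to total microRNA reads it was -0.64, with 3 of 7 positive.

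**Figure D4:**
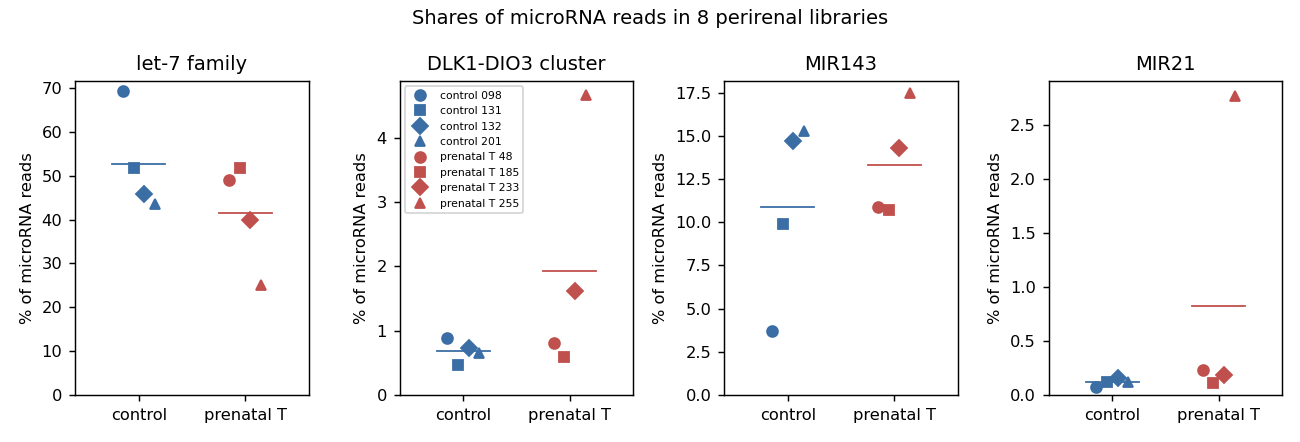
Percent of microRNA reads (y axes, from 0) taken by the let-7 family, the DLK1-DIO3 cluster, MIR143 and MIR21 in each perirenal library, with the group mean as a line. Prenatal T 255 has the lowest let-7 share at 25.0% and the highest DLK1-DIO3 share at 4.67%, and control 098 has the highest let-7 share at 69.4%.

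Further microRNAs of high level were MIR143, MIR99A, MIR125B and MIR10B. MIR143, which promotes fat cell formation and is strong in smooth muscle, had 48928, 110944.5, 144024 and 158829 normalised reads in controls and 94348.5, 111453, 111703 and 75317 in prenatal T sheep. Its groups overlapped fully, with a log2 fold change of -0.12 (limma adjusted p = 0.933). MIR99A, an inhibitor of growth signalling through mTOR, had -0.07 (limma adjusted p = 0.965), and MIR125B, a brake on brown fat genes, had -0.79 (limma adjusted p = 0.441). MIR125B was at 11463 normalised reads in prenatal T 255 and at 43746 to 65802 in the other 7, and its value was -0.27 without that library. MIR10B, which lies in a HOX gene cluster, had 0.12 (limma adjusted p = 0.933) and turned to -0.30 without control 098. The HOX list held 2 tested members, MIR10A and MIR10B, with a median of 0.01.

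MicroRNA lists of fat biology contained no called member. Of 8 tested regulators of brown and beige fat, 7 had negative values with a median of -0.31, beside 46 of 86 negative over all microRNAs. In 3 of them (MIR133, MIR106B and MIR26A) every prenatal T library was lower, beside 4.65% of all microRNAs tested. The list's median was -0.15 without prenatal T 255 and turned to 0.27 with scaling to total microRNA reads. Of 15 pro-adipogenic microRNAs, 10 were negative (median -0.17), and of 10 anti-adipogenic ones 9 were negative (median -0.63). The anti-adipogenic list holds most of the let-7 family, and its median was -0.23 without control 098 and prenatal T 255. With scaling to total microRNA reads it had 5 positive and 5 negative values (median -0.05). For the pro-adipogenic list 13 of 15 were positive with that scaling (median 0.41), and 8 of 15 without prenatal T 255 (median 0.01).

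The insulin and glucose list had 8 of 8 negative values within a narrow range (-0.35 to -0.12, median -0.20), and 8 of 8 positive ones (median 0.38) with the other scaling. MIR29B-1, whose family is linked to insulin resistance and collagen, had 93.7, 154, 148 and 149 normalised reads against 134, 135, 106.6 and 62.7. Control 098 lay apart from the other controls, and the log2 fold change was -0.35 (limma adjusted p = 0.653), -0.52 without control 098 and -0.10 without prenatal T 255. The androgen-responsive list, drawn from other tissues, had 2 of 9 positive with a median of -0.07, next to -0.06 for all microRNAs. With scaling to total microRNA reads 7 of 9 were positive (median 0.51), next to 0.52 for all microRNAs. Without control 132 the list's median was -0.35. In the inflammation list (MIR21, MIR150 and both copies of MIR181A) 3 of 4 were negative (median -0.96). The median was -0.46 without prenatal T 255 and -0.15 without control 098 as well. MIR181A-2, a member that tunes immune cell signalling, had -0.97 (limma adjusted p = 0.427) and -0.16 without the 2 libraries that stood apart. Copies of MIR181A and of MIR29B share their mature sequence and may share reads. Both MIR29B rows had the same values in every library, and both MIR181A rows nearly the same (-0.95 and -0.97). Lists that hold them thus count 1 measurement more than once, and the inflammation median is in effect that of MIR181A.

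Markers of other cell types were at hand only in part. MIR150, of lymphocytes, was the only one of 5 leukocyte markers in the table, with 8285, 3921, 4815 and 3340 normalised reads in controls and 3475, 5459, 2247 and 378 in prenatal T sheep. The log2 fold change was -1.25 (limma adjusted p = 0.427), and -0.19 without control 098 and prenatal T 255. Of the epithelial, kidney and adrenal markers 4 of 10 were in the table and 3 were tested, with a median of -0.06. Of these, MIR194 was nearly level at 126.8, 140, 132 and 131 against 129, 107.2, 131 and 145, and MIR200C was highest in control 098 at 38.6 against 6.01 to 18.8 in the others. The third, MIR200B, was highest in prenatal T 255 at 55.6 against 3.76 to 32.4, and its log2 fold change of -0.03 became -0.77 without that library. MIR200A, the member below the filter, was also highest in prenatal T 255, at 24.4 against 0 to 3.36. Of the mesenchymal markers 3 of 4 were tested and all had positive values (median 0.44), which became -0.07 with 3 of 3 negative without control 098 and prenatal T 255. MIR218A was at 769 in prenatal T 255 and at 71.7 to 137 elsewhere. Markers of red cells, endothelium, liver and neurons had no entry in the table used here. The part of cell make-up in the differences of these 2 libraries was not tested.

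Among snoRNAs 51 of 147 values were positive. With scaling to total snoRNA reads 72 of 147 were positive (median -0.01), and without control 098 62 of 137 were (median -0.09). Some snoRNA rows, such as LOC114114254, LOC114114255 and LOC114114651, had the same values in every library. These counts thus hold 1 measurement more than once. LOC114113388, within the nucleolin gene NCL, had 2.27, 9.84, 4.71 and 6.06 normalised reads in controls and 10.5, 12, 13.7 and 26.8 in prenatal T sheep. Every prenatal T library lay above every control, though by less than 1 normalised read at the closest, and the log2 fold change was 1.36 (SE 0.47, limma adjusted p = 0.742). It was 0.78 without control 098 and prenatal T 255. LOC114117047, within TMEM107, a gene of the ciliary transition zone, had 19.3, 19.7, 35.8 and 25.5 against 11.1, 13.4, 18.6 and 12.4. All prenatal T values were lower, with a log2 fold change of -0.79 (SE 0.35, limma adjusted p = 0.742). LOC114114645, in HIBADH, an enzyme of valine breakdown, had 1.13, and LOC114118580, in the ribosomal protein gene RPL27A, had -0.94 (limma adjusted p = 0.742 for each).

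The 41 snRNAs had wide intervals and 0 of them reached an unadjusted p under 0.05 with limma, edgeR or DESeq2. LOC114117093 had 51.1, 55.6, 459 and 64.5 normalised reads in controls and 187, 58.4, 18.2 and 89.8 in prenatal T sheep. Control 132 was far above the rest, and the log2 fold change of -0.55 became 0.20 without it (limma adjusted p = 0.971 and 0.805). LOC114111406 was also highest in control 132, at 26 beside 0 to 3.31 in the other controls. LOC114112565 and LOC114110972 had almost the same values in each library and may share reads, with a log2 fold change of 1.03 for the former, and LOC114113424, within CLASP1, had 0.52. Without control 098 these were 0.48 and 0.05. Gene copies are common among snRNAs, and no source used here says how the authors assigned reads to them.

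LncRNAs with the lowest p were of low level and without known function. LOC105603415 had 4.63, 2.10, 6.89 and 1.99 normalised reads in controls and 8.19, 5.76, 14.4 and 13.0 in prenatal T sheep, with prenatal T 185 below control 132. Its log2 fold change was 1.26 (SE 0.51, limma adjusted p = 0.906). LOC105603919 had 3.09, 14, 15.5 and 11 against 20.5, 18.1, 28.8 and 26.1, and every prenatal T value was higher (1.19, SE 0.50, limma adjusted p = 0.906). Its log2 fold change was 0.68 without control 098 and prenatal T 255. Groups were also apart, in the higher direction, for LOC114115568 (1.05) and LOC114114068 (0.67), and in the lower direction for LOC114117603 (-0.81). LOC114110424 had -1.49 with overlapping groups. LOC114113912 rested on 1 library, with 603 normalised reads in prenatal T 255 and 3.09 to 41.9 elsewhere. Its log2 fold change of 2.34 became 1.20 without that library.

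Reads were also split by RNA class. MicroRNAs took 84.2%, 88.5%, 87.4% and 88.1% of reads in controls and 88.0%, 88.8%, 89.2% and 92.4% in prenatal T sheep, a mean difference of 2.53 percentage points (two-sided exact permutation p = 0.0857, adjusted over 4 classes 0.228). LncRNAs took 13.0%, 11%, 11.2% and 11.5% against 11.4%, 10.9%, 10.3% and 6.88%, a difference of -1.81 points (exact permutation p = 0.114, adjusted 0.228). Groups overlapped in both, and control 098 and prenatal T 255 lay at opposite ends of both. Leaving out prenatal T 48 gave -2.32 points for lncRNAs and an unadjusted exact permutation p = 0.0286. The snoRNA share was 2.42% in control 098, the library of the later set, and 0.277% to 0.576% in the other 7. Its difference of -0.481 points (exact permutation p = 0.629) became 0.0226 points within the early set. The snRNA share was 0.927% in control 132 and 0.0671% to 0.353% elsewhere, with a difference of -0.237 points (exact permutation p = 0.429). The smallest p that 4 sheep against 4 allow is 0.0286.

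The perirenal effect was then set against the mean effect in subcutaneous, visceral and epicardial fat of the same 8 sheep. Of 441 features tested with limma, 0 were called (0.0%), with 8 at an unadjusted p under 0.05 and a lowest adjusted p of 0.568. edgeR and DESeq2 called 0 as well, with 16 and 20 at an unadjusted p under 0.05. No difference between depots was thus shown for any feature named here. MIR133 had log2 fold changes of -1.95 in perirenal, -0.75 in subcutaneous, -1.38 in visceral and 0.65 in epicardial fat. Its difference of -1.46 (SE 1.04, limma adjusted p = 0.743) was less than 2 standard errors from 0. MIRLET7C was negative in all 4 depots (-1.36, -0.47, -0.88 and -0.61, in the same order), as was MIR106B (-1.11, -0.41, -0.62 and -0.49). The DLK1-DIO3 members MIR369 and MIR411A were positive in all 4, while MIR495 had 1.15, -0.30, 0.96 and 0.37. MIR127, the member of highest level, had 0.42, -0.29, 0.53 and -0.48. The whole cluster took a mean of 0.681% of perirenal microRNA reads in controls and 1.92% in prenatal T sheep. These means were 0.442% and 0.48% in subcutaneous, 0.876% and 1.69% in visceral, and 2.49% and 1.9% in epicardial fat. The higher perirenal share was thus not seen in all 4 depots.

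**Figure D5:**
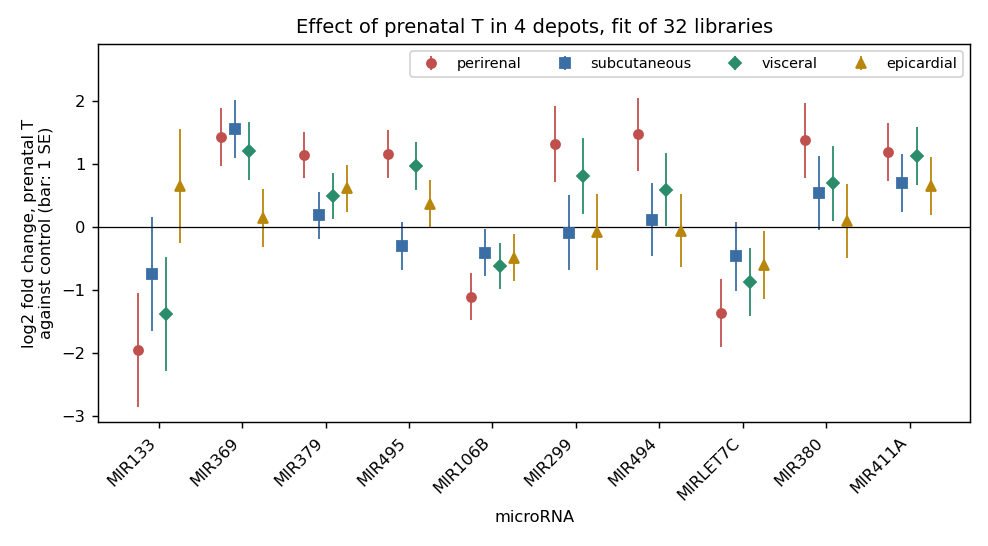
Log2 fold change of prenatal T against control (y axis; bars are 1 SE) for the 10 microRNAs of lowest perirenal p (x axis), in each of 4 depots of the same sheep, from a fit of 32 libraries. Perirenal values are farthest from 0 for most of these microRNAs, which were chosen on their perirenal values, and no difference from the other depots passed the test.

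MIR362 had the lowest p in this contrast, with 5.51, 19.2, 27.1 and 18.1 normalised reads in perirenal fat of controls and 24.8, 26.3, 30.2 and 56.7 in prenatal T sheep. Its groups overlapped there, with control 098 lowest, on very few reads, and prenatal T 255 highest. The perirenal value was 1.04, or 0.60 without control 098 and 0.34 without both, and those of subcutaneous, visceral and epicardial fat were -0.34, -0.40 and -0.19, a difference of 1.35 (SE 0.47, limma adjusted p = 0.568). Next came LOC114118580 (-1.27), LOC114114645 (1.38), LOC105603415 (1.34) and LOC114117362 (0.96), the last a snoRNA outside any gene of the RefSeq table. Perirenal and subcutaneous prenatal T libraries were all of the early set, and epicardial controls were all of the later set. The sets were mixed in the other groups, so that the set is not balanced in this contrast. Adding the set as a covariate left 0 features called.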

How the data were processed

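Per the labels' protocols, RNA was extracted with Trizol and sequenced from small RNA libraries. The submitters' processing notes list cutadapt 3.2, STAR 2.6.0c and featureCounts 1.6.1, and no source used here names the genome build. What the authors deposited is a normalised signal, reads divided by a size factor. From these values whole reads were recovered for 100% of entries (tolerance 1e-05) in tables of 105 microRNAs, 694 snoRNAs, 1148 snRNAs and 2973 lncRNAs, and the perirenal size factors equalled median-of-ratios factors within depot and class. Groups and sheep numbers came from the labels, and no column was left out. Reads over the 4 classes ranged from 283463 to 1742991, and all pairs within a group differed by more than sampling noise (chi-square per degree of freedom 26.3 to 868).

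Values were fitted as log2(value + 1) in limma 3.58.1 (R 4.3.3), the spread following the mean, in a fit for each class, for features with a mean of at least 5. This scale understates changes of features of low level. P-values were adjusted by Benjamini-Hochberg within the class and called under 0.05. The perirenal effect was set against the average of the other 3 over 32 libraries. Depots of 1 sheep are paired by the labels: deviations of perirenal libraries from the means of their groups had a median correlation of 0.15 with other depots of the same sheep (over 0.1 in 13 of 24 pairs) and of -0.04 with those of other sheep. Class shares were tested by exact permutation of 8 sheep. Alternatives were edgeR 4.0.16 and DESeq2 1.42.0 on recovered reads, other scalings, pseudocounts and filters, a term for the library set, a sheep block, and each library left out. The fits were tested on simulated data. Gene names and neighbourhoods came from RefSeq, assembly ARS-UI_Ramb_v3.0, which matched all 86 microRNAs, 139 of 147 snoRNAs, 30 of 41 snRNAs and 90 of 197 lncRNAs. Its coordinates are not used, and no sequence is printed.

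Named features are those called, the 10 microRNAs and 5 features of each other class with the lowest p, the 8 most abundant microRNAs, the most abundant member and that of lowest p in each list, and the 5 of lowest p against the other depots. Features whose groups did not overlap, MIR21, MIR200A and MIR200B were named after their values were seen. A snoRNA that this rule names is not reported here. The members and lists were chosen with earlier results of these data known.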

Additional observations from a re-analysis of the deposited data

Results flagged for a closer look

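Among 96 sets of 4 libraries (44 named features and 4 class shares, controls and prenatal T sheep apart), 14 held a library far from the other 3 of its group, by Dixon's criterion at the 95% level. The 95% level assumes independent sets of normally distributed values. These sets hold unlogged values of related features, many named for their low p, so no rate due to chance can be given. Control 098 stood above its group for MIR106B (4206 normalised reads, next 1700), MIR200C (38.6, next 13.5) and the snoRNA share (2.42%, next 0.459%), and below it for MIRLET7F (20109, next 56251) and MIR29B-1 (93.7, next 148). Prenatal T 255 stood above its group for MIR494 (318, next 65.5), MIR218A (769, next 97.1), MIR362 (56.7, next 30.2) and the lncRNA LOC114113912 (603, next 41.9).

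Control 132 was far above the other controls for MIR133 (2528 normalised reads, next 666) and for the snRNAs LOC114117093 (459, next 64.5) and LOC114111406 (26, next 3.31), and below them for the lncRNA LOC114110424 (2.58, next 8.97). LOC114111406 was also high in prenatal T 48 (11.3, next 0.623). Over all 471 features tested, control 098 lay far above its group in 44 and far below in 10, prenatal T 255 above in 42 and below in 2, and control 132 above in 16 and below in 1.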

How the results depend on the processing

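The count of called features stayed at 0 under each alternative except DESeq2, which called 1 (MIR133, -2.31, adjusted p = 0.00784). With each library left out limma called 0 (lowest and highest 0), with 6 to 29 features at an unadjusted p under 0.05. DESeq2 with each library left out, added after seeing the data, called 1 feature in 6 of 8 cases (without control 132 it was LOC114113974 in place of MIR133, then at -1.35), 2 without prenatal T 48 and 11 without prenatal T 185. Beside MIR133, the call without prenatal T 48 was MIR494. Without prenatal T 185 the calls beside MIR133 were MIR369, MIR379, MIR380, MIR3958, MIR411A, MIR494, MIR495 and MIR655 of the DLK1-DIO3 cluster, MIR21 and MIRLET7C. With sheep as a replicate block 0 features were called in the perirenal comparison and 0 in that with the other depots, and the block changed no other call. Leaving out 1 library moved the share differences from 1.59 to 3.06 points for microRNAs, -0.671 to 0.0226 for snoRNAs (the sign turned without control 098), -0.333 to -0.0463 for snRNAs and -2.32 to -0.808 for lncRNAs (exact permutation p = 0.0286 without prenatal T 48).

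Of 898 alternative values for 44 named features, 866 kept their sign and their side of the threshold, 1 was newly called and 31, in 11 features, turned sign without being called. The cause was not tested. Scaled to class total and to the total of 4 classes, MIR143 had 0.46 and 0.50, MIR99A 0.51 and 0.55, MIR26A 0.28 and 0.32, MIRLET7F 0.39 and 0.43, MIR29B-1 0.23 and 0.27, MIR194 0.52 and 0.56, and MIR200C 0.02 and 0.06. MIR194 had 0.02 with edgeR. With a set term MIR10B had -0.18. With each library left out in turn, the sign turned within ranges of -1.05 to 0.20 for LOC114117093 (turned without control 132 and prenatal T 233), -0.49 to 0.07 for MIR143 (controls 132 and 201), -0.46 to 0.13 for MIR99A (controls 131 and 201, prenatal T 255), -0.58 to 0.29 for MIRLET7F and -0.08 to 1.01 for MIR218A (prenatal T 255), -0.30 to 0.39 for MIR10B (control 098) and -0.12 to 0.02 for MIR194 (prenatal T 185). Without control 098 and prenatal T 255, added after seeing the data, MIR10B had -0.03, MIR200C 0.15, MIR199A -0.07 and MIR218A -0.20. Control 098 held 283463 reads, so its low features are the least precise.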

Other observations

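Prenatal T 233 and 255 also stood out in visceral fat, in values looked at after the perirenal ones. Let-7 took 71.7%, 69.5%, 55.8% and 69.5% of visceral microRNA reads in controls 098, 131, 132 and 201 and 71.0%, 72.2%, 44% and 35.1% in prenatal T 48, 185, 233 and 255. MIR21 took 0.106%, 0.0418%, 0.133% and 0.054% there in controls and 0.0652%, 0.0785%, 0.639% and 0.524% in prenatal T sheep. The lncRNA LOC114113912 had 1.68, 1.48, 17.3 and 1.08 normalised reads against 3.2, 4.8, 52.6 and 380. In each case prenatal T 233 and 255 lay outside the range of the visceral controls. In perirenal fat both were also outside for the let-7 share (39.9% and 25.0%, lowest control 43.6%). So they were for the MIR21 share (0.184% and 2.77%, highest control 0.161%) and LOC114113912 (41.9 and 603, highest control 22.4). Prenatal T 48 lay above the controls there too for MIR21 (0.231%) and LOC114113912 (23.4). In normalised reads, MIR21 in perirenal 233 was within the control range. In subcutaneous fat the MIR21 share was 0.46% and 0.463% in these 2 sheep and 0.479% in control 132, so that the groups overlapped there. The let-7 share in subcutaneous fat was 43.2% in prenatal T 233 and 43% in 255, next to 42.2% in control 132. In epicardial fat it was 50.4%, 64.7%, 55% and 54.3% in controls and 42.6%, 39.3%, 49.3% and 43.3% in prenatal T sheep. Every prenatal T share there lay below every control, with 185 and 48 lowest. All epicardial controls were of the later library set, as were prenatal T 48 and 233, while 185 and 255 were early. In visceral fat controls 131 and 132 and prenatal T 255 were early and the others later. The set was thus not balanced between the groups in either depot.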
